A study of Mus musculus with 45 samples.

Results

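The mitochondrial calcium uniporter complex was followed here through 8 genes of the inner mitochondrial membrane, Mcu, Mcub, Smdt1, Micu2, Micu3, Mcur1, Letm1 and Slc8b1. They were picked by symbol from 54532 genes in the count table, with earlier results of these data known. The uniporter is the channel through which calcium enters the mitochondrial matrix down the voltage across the inner membrane. Mcu forms its pore, Mcub is a paralog that lowers the current when it joins the pore, and Smdt1 encodes EMRE, the small subunit that the pore needs to conduct. Micu2 and Micu3 are EF-hand proteins that regulate the pore, and Micu2 helps to keep it shut at resting calcium. Mcur1 is a scaffold factor for the assembled complex. Letm1 works in cation and proton exchange across the same membrane, and Slc8b1 encodes NCLX, the sodium/calcium exchanger that returns calcium from the matrix to the cytosol. In neurons, mitochondria take up calcium that enters through NMDA receptors, and overload of the matrix is a known step of excitotoxic death.

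RNA was sequenced from primary hippocampal neurons of newborn (P0) C57BL/6N mice, grown with 1% rat serum, given AraC (a mitosis inhibitor that limits dividing glia) on day in vitro 3 and treated on day 10 or 11 by the labels, or day 11 by the methods of the study. Of 45 libraries, 5 were made for each of 9 conditions, 1 from each of the culture preparations numbered 1, 3, 6, 7 and 8. Cultures were left untreated (control) or received 50 µM bicuculline (Bic), which blocks GABA type A receptors and induces action potential (AP) firing, for 0.5, 1 or 2 h. The short protocol (SP) put 0.5 h of Bic before 0.5 h in 1 µM tetrodotoxin (TTX), a sodium channel blocker that stops AP firing, either alone or together with 30 µM NMDA. The long protocol (LP) doubled each phase to 1 h, and its interventions were TTX, TTX plus NMDA, and 50 µM TBOA, an inhibitor of glutamate transporters that causes glutamate spillover. Bic stayed in the medium during each intervention, so that every treated group held Bic. The difference of TTX from Bic is called the passive component, that of TTX/NMDA from TTX the active component, that of TTX/NMDA from Bic the total effect and that of TBOA from Bic the spillover effect. These comparisons share groups: the TTX libraries serve in the passive and the active component, and the Bic libraries in the passive, total and spillover comparisons.

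Library depth was 11316580 to 81129276 reads on genes (median 26239614), no library repeated another, and all 45 entered the fits. The cultures held all 10 neuronal marker genes at a mean of at least 1 CPM (the reads on a gene relative to the size of its library, with sizes scaled by the trimmed mean of M values, TMM), with a summed level of 7169 to 9794 CPM per library, and all 7 astrocyte markers, with 883 to 1928 CPM. Of 7 oligodendrocyte lineage markers 6 reached 1 CPM (101 to 313 CPM in sum), of 6 vascular and fibroblast markers 4 (56.2 to 197 CPM), and of 7 microglial markers 2 (4.61 to 8.94 CPM). The microglial genes P2ry12 and Itgam were at 0 counts in 6 and 3 libraries, and the endothelial gene Cldn5 in 27. In such mixed RNA, fewer cells of a type and less RNA per cell cannot be told apart.

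All 8 members were detected in every library. By length, Smdt1 had the highest level in the control, 53.5 ± 7.83 CPM per kb of exon (SD, n = 5). Micu3 followed with 14.3 ± 1.52, Letm1 with 11.3 ± 0.648 and Micu2 with 11.2 ± 1.78 CPM per kb, and the last 2 differed by less than their SD. Mcu had 7.49 ± 0.324 and Mcub 6.08 ± 0.510 CPM per kb. By this measure the transcript of the inhibitory paralog stood at 0.814 ± 0.0810 times that of the pore gene in the same library. The ratio rests on exon lengths of 6936 bases for Mcu and 1318 for Mcub, each joined over all annotated transcripts. Without length, the control levels were 51.98 and 8.02 CPM. Mcur1 had 2.41 ± 0.286 and Slc8b1 0.367 ± 0.0607 CPM per kb. Slc8b1 was thus the lowest of the set, with 14 to 113 reads per library, whereas the other 7 genes had between 75 and 9731 reads. Of the 245 exon bases of Smdt1 that lie in Pheta2 on the same strand, no read could be counted, and they were left out of its length.

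The genes lie apart on the mouse genome (GRCm38, GENCODE M21), each as a protein-coding gene counted over its exons. Mcu is at chr10:59446984-59616692, Mcub at chr3:129914960-129970206, Smdt1 at chr15:82338959-82349091 and Micu2 at chr14:57916261-57999262. Micu3 is at chr8:40307458-40386308, Mcur1 at chr13:43538393-43560191, Letm1 at chr5:33739673-33782817 and Slc8b1 at chr5:120511168-120534024. Promoter sequences (RefSeq, GRCm38.p6, 250 bases before to 50 after the annotated start) were found for 6 members, all but Micu3 and Slc8b1. They were searched on both strands for the cyclic AMP response element (CRE, TGACGTCA), the Npas4-Arnt element (TCGTGA), the AP-1 element (TGACTCA) and the GC box (GGGCGG). The first 3 bind factors of activity-regulated gene expression. No 2 of these words overlapped in the 6 promoters. Smdt1 alone held a CRE, 146 bases before the RefSeq start, and an Npas4-Arnt element, 52 bases before it. That start lies just after chr15:82346045, inside the GENCODE span of Smdt1, which begins at 82338959 on the plus strand. The 2 annotations thus place the start of Smdt1 apart, and bases before the GENCODE start were not searched. CRE and Npas4-Arnt words occur in 1.88% and 4.0% of the 27025 promoters of the same length. Mcu alone held an AP-1 word, 81 bases before its start, against 5.17% of all promoters. Mcur1, Micu2, Letm1 and Smdt1 held a GC box (35.9% of all promoters), and Mcub held none of the 4 words. The NRF1 element, bound by a regulator of mitochondrial genes, was searched as well and was found in 0 of the 6 (0.977% of all promoters). The bases before the start are shown for Smdt1 and Mcu, which hold these words, and for Mcur1, the member called in most comparisons (5′ to 3′ on the strand of the gene, which is plus for Smdt1 and minus for the other 2, capitals marking the CRE and the Npas4-Arnt element in Smdt1 and the AP-1 element in Mcu).
Smdt1, chr15:82345796-82346045: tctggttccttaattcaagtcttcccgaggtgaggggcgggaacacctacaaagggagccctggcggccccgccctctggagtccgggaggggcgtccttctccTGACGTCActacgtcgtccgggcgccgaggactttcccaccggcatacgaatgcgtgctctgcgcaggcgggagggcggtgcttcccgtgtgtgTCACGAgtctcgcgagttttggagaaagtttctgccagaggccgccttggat
Mcu, chr10:59616693-59616942: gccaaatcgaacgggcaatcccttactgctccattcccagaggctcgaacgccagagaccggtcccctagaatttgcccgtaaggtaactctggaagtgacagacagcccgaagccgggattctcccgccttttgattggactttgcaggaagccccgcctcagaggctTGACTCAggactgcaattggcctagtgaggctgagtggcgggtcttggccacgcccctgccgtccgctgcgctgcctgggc
Mcur1, chr13:43560192-43560441: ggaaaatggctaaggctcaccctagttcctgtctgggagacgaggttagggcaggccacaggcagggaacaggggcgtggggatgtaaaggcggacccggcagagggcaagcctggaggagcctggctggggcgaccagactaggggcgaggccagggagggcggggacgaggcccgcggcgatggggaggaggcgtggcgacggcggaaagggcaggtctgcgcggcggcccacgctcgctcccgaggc
A word match describes these letters only.

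**Figure D1:**
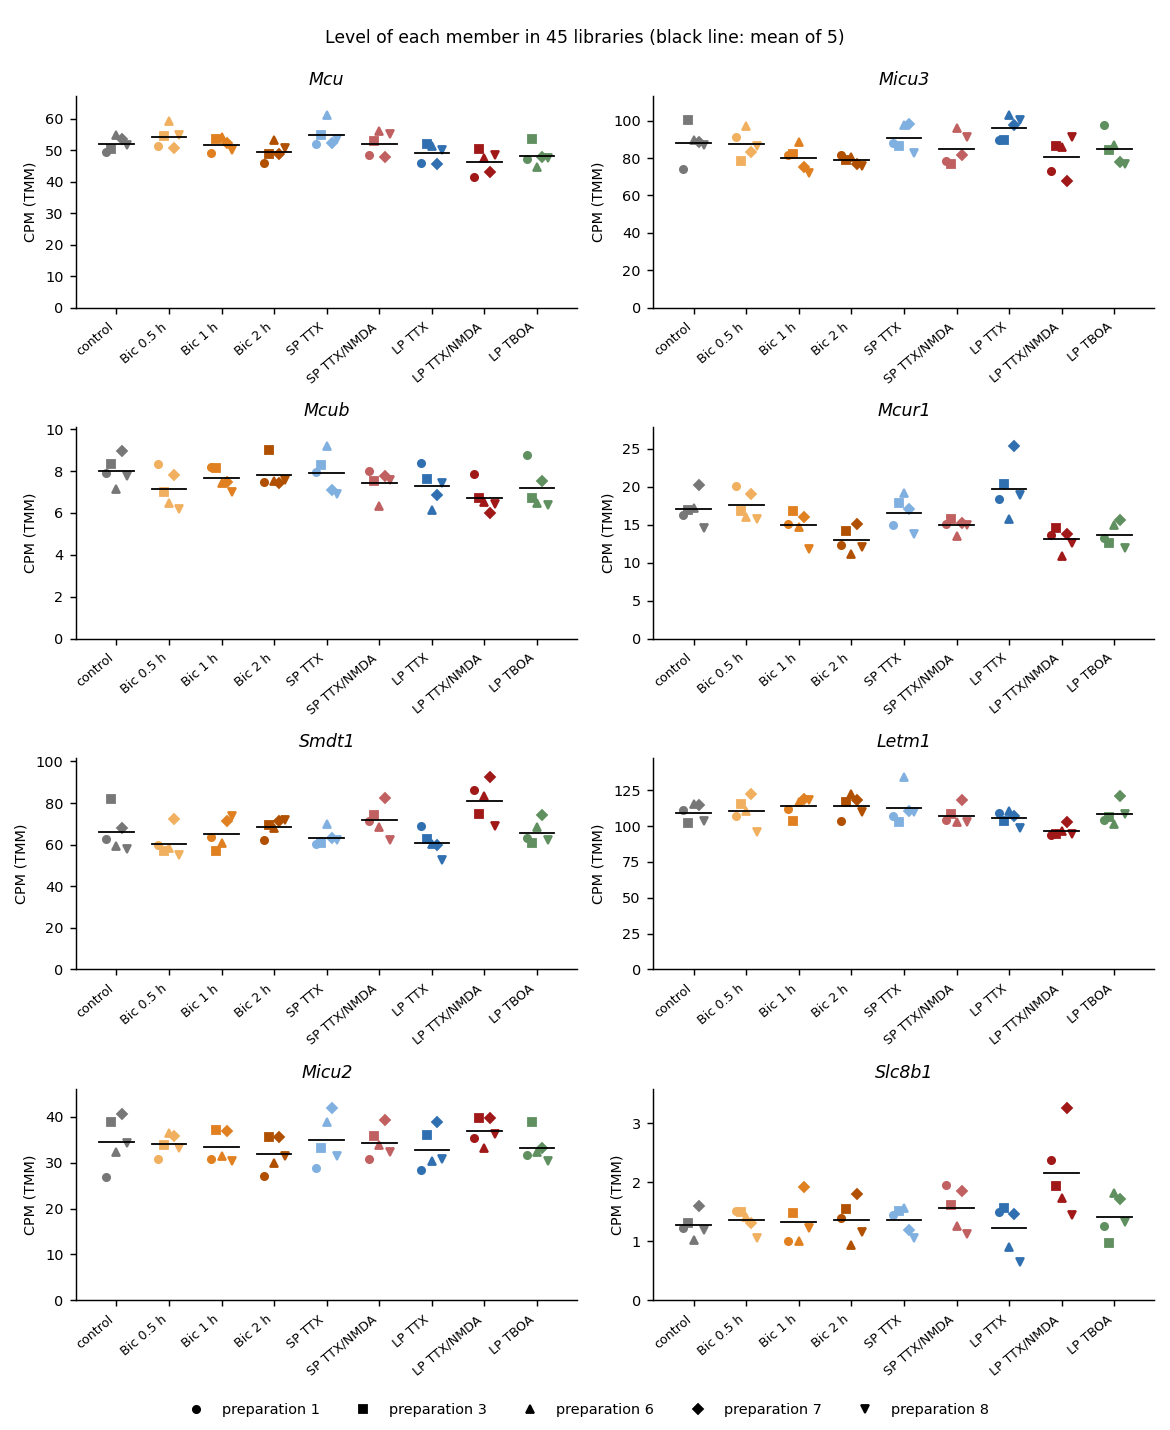
Level of each member (y axis, TMM-normalized CPM from 0) in the 9 conditions (x axis), with 1 point per library, shaped by preparation, and a black line at the mean of 5. Mcu stayed between 41.6 and 61.1 CPM in all libraries, whereas by condition mean Slc8b1 was highest and Letm1 lowest after LP TTX/NMDA and Mcur1 was highest after LP TTX.

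Pore genes came out within a narrow range in all 9 conditions. The mean level of Mcu ran from 46.2 ± 3.72 CPM after LP TTX/NMDA to 54.8 ± 3.73 CPM after SP TTX, a 1.18-fold span. That of Mcub ran from 6.71 ± 0.694 CPM after LP TTX/NMDA to 8.02 ± 0.672 CPM in the control, a 1.19-fold span. With conditions ordered by level, no neighbours differed beyond their SD for either gene. Within preparations, Mcu was lower in 5 of 5 after 2 h Bic (-0.08 ± 0.07) and in the LP active component (-0.09 ± 0.07) and higher in 5 of 5 in the SP passive component (0.07 ± 0.07). Neither gene was called in any of the 10 comparisons or the 2 tests between protocols, nor in a fit paired by preparation (edgeR's quasi-likelihood test, Benjamini-Hochberg adjusted p under 0.05 over all genes tested). The 95% confidence intervals given here are those of the fit without pairing. For Mcu the log2 interval ran from -0.23 to 0.07 after 2 h Bic and from -0.24 to 0.05 in the LP active component. The fit paired by preparation gave Mcu smaller standard errors, at -0.08 ± 0.05 and -0.07 ± 0.04. For Mcub the interval of the LP active component ran from -0.36 to 0.12. The failure to pass the test does not show that the levels were equal.

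The other 6 genes spanned between 1.16-fold and 1.77-fold over the condition means. Slc8b1 had the widest, 1.77-fold, from 1.22 ± 0.416 CPM after LP TTX through 1.27 ± 0.210 CPM in the control to 2.15 ± 0.709 CPM after LP TTX/NMDA. Mcur1 followed with 1.53-fold, lowest after 2 h Bic (12.9 ± 1.63 CPM), LP TTX/NMDA (13.1 ± 1.44 CPM) and TBOA (13.7 ± 1.56 CPM) and highest in the control (17.04 ± 2.02 CPM), after 0.5 h Bic (17.6 ± 1.91 CPM) and after LP TTX (19.7 ± 3.55 CPM). The 3 lowest conditions and the highest were all harvested 2 h after Bic was first added.

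Smdt1 spanned 1.34-fold, and its level after LP TTX/NMDA, 81.2 ± 9.34 CPM, was above the next, 71.6 ± 7.44 CPM after SP TTX/NMDA, by more than the larger SD. Letm1 spanned 1.18-fold, and its level after LP TTX/NMDA, 96.5 ± 3.81 CPM, was below the next, 105.9 ± 4.99 CPM after LP TTX, by more than the larger SD. Micu3 ran over 1.22-fold, from 78.7 ± 2.44 CPM after 2 h Bic to 96.03 ± 6.15 CPM after LP TTX, and Micu2 over 1.16-fold, from 31.9 ± 3.65 CPM after 2 h Bic to 36.8 ± 2.80 CPM after LP TTX/NMDA. Every other pair of neighbours in the order of the 9 conditions, for all 8 genes, differed by less than the larger SD of the pair.

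The question put to the Bic series was which transcripts follow the duration of AP firing. Mcur1 was the only member that passed the test, and only after 2 h. Its levels in the control were 16.3, 16.9, 17.2, 20.2 and 14.6 CPM in preparations 1, 3, 6, 7 and 8, and after 2 h Bic they were 12.3, 14.1, 11.1, 15.1 and 12.03 CPM. Each preparation was lower after 2 h Bic, although the highest Bic library overlapped the lowest control. Mcur1 fell by 0.42 ± 0.10 (log2 fold change with its standard error, edgeR adjusted p = 0.00517), which is a fold change of 0.748. At 1 h its difference was -0.20 ± 0.10 and lower in 5 of 5 preparations, without a call, and at 0.5 h it was 0.03 ± 0.10.

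This 1 call among 8 members compares with 9.02% of all genes tested and 18.6% of the 13592 genes with a mean of at least 1 CPM, a class that holds all 8 members. After 0.5 and 1 h, edgeR called 0 members, where 0.289% and 1.16% of all genes and 0.574% and 2.39% of those with a mean of at least 1 CPM were called. Not a single member had an unadjusted p under 0.05 at either time, and DESeq2 also called 0 at both. Micu3, the Micu gene enriched in brain, had a difference of -0.17 ± 0.08 after 2 h, lower in 4 of 5 preparations, which did not pass (edgeR adjusted p = 0.211). With libraries scaled by their totals alone it did (-0.26 ± 0.08, edgeR adjusted p = 0.0209), a scaling that moved the calls over all genes from 1311 higher and 1478 lower to 1005 higher and 2525 lower. The uniporter subunit gene Smdt1 (0.05 ± 0.08) and the exchangers Letm1 (0.05 ± 0.08) and Slc8b1 (0.05 ± 0.22) showed no detectable difference after 2 h. For Slc8b1 the interval was wide, from -0.39 to 0.50.

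The SP addressed what a 0.5 h block of AP firing, without and with NMDA, does to these levels. No member was called in the passive, active or total comparison of the SP by edgeR, against 0.268%, 4.28% and 4.3% of all genes and 0.544%, 9.54% and 9.38% of the genes with a mean of at least 1 CPM. The counts at an unadjusted p under 0.05 were 1 (Micu3), 1 (Smdt1) and 0, and DESeq2 called 0 members in each. Micu3 stood at 71.9 to 88.7 CPM after 1 h Bic and at 82.8 to 97.9 CPM after SP TTX. All 5 preparations were higher with TTX, by 0.18 ± 0.07, but the ranges overlapped and the difference missed the threshold (edgeR adjusted p = 0.879). Smdt1 differed by 0.17 ± 0.07 between SP TTX/NMDA and SP TTX, higher in 3 of 5 preparations (edgeR adjusted p = 0.243), and passed only with scaling by library totals (0.24 ± 0.07, edgeR adjusted p = 0.0435). That scaling moved the calls over all genes from 308 higher and 1071 lower to 712 and 609 in the SP active comparison, and from 280 and 1071 to 955 and 639 in the SP total comparison. Without preparation 8, Smdt1 also passed in the SP total comparison (0.23 ± 0.07, edgeR adjusted p = 0.0474), where all 5 preparations gave 0.13 ± 0.08.

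In the LP, the passive component asks what happens when AP firing is stopped after 1 h and RNA is taken after a further 1 h. Mcur1 and Micu3 were higher with TTX than with continued Bic, and no member was called lower. Mcur1 reached 18.4, 20.3, 15.7, 25.4 and 18.9 CPM after LP TTX in preparations 1, 3, 6, 7 and 8, against 11.1 to 15.1 CPM after 2 h Bic. The groups did not overlap, and preparation 7 was highest in both. The rise of Mcur1 was 0.61 ± 0.10 (edgeR adjusted p = 2.01e-04), a level 53.0% higher, and within preparations it spanned 41.99% to 68.03%.

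Micu3 stood at 81.5, 78.8, 80.6, 77.1 and 75.6 CPM after 2 h Bic and at 89.4, 89.8, 102.9, 97.7 and 100.4 CPM after LP TTX in the same order of preparations. Again every TTX library was above every Bic library. Micu3 rose by 0.28 ± 0.06 (edgeR adjusted p = 0.00398), a 21.3% higher level. These 2 calls of 8 compare with 4.65% of all genes tested and 10.4% of the genes with a mean of at least 1 CPM. Both calls held without any 1 of the preparations, at adjusted p up to 0.00128 for Mcur1 and 0.0289 for Micu3 in edgeR, and under both library scalings. Among the cell type markers, 1 oligodendrocyte lineage gene and no neuronal or astrocyte gene was called in this comparison.

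A fit that paired the libraries by preparation and also dropped genes of low counts (by filterByExpr), called the paired fit from here on, added 2 calls in the LP passive component, where it called 35.8% of the genes with a mean of at least 1 CPM. In it Smdt1 fell by 0.20 ± 0.06 (edgeR adjusted p = 0.0161) and Letm1 by 0.13 ± 0.04 (edgeR adjusted p = 0.0337), each with a lower level with TTX in 4 of 5 preparations. With neither pairing nor filter the values were -0.19 ± 0.07 and -0.12 ± 0.06, short of the threshold, and the filter without pairing called neither. Without preparation 1, Smdt1 passed in the unpaired fit too (-0.26 ± 0.07, edgeR adjusted p = 0.0283). The reads of Slc8b1 gave -0.14 ± 0.23, which leaves changes in either direction within its interval of -0.60 to 0.33.

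**Figure D2:**
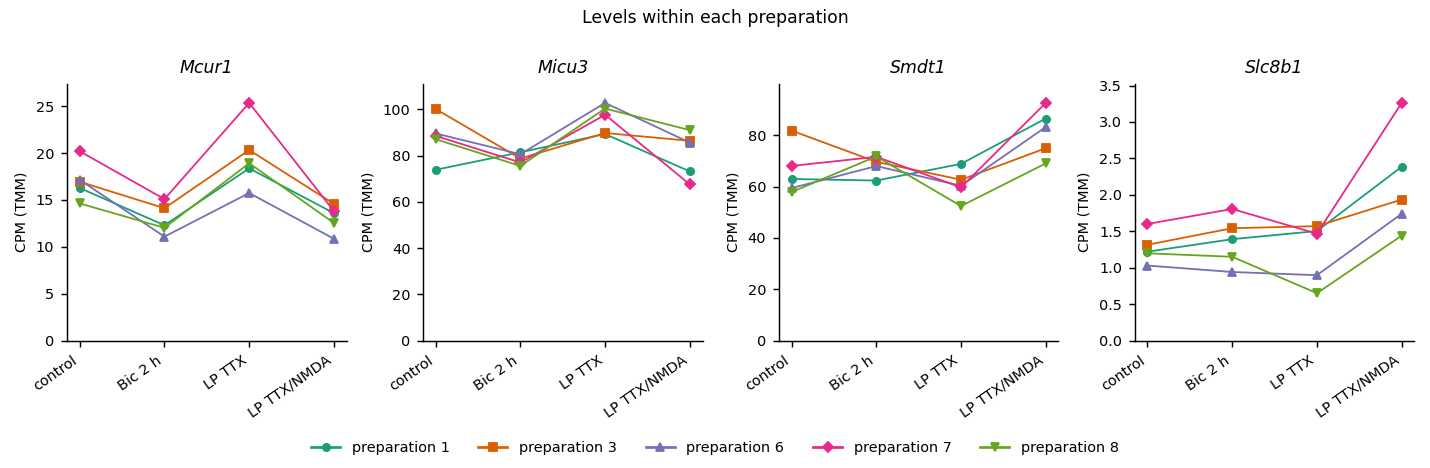
Levels of 4 members (y axis, TMM-normalized CPM from 0) in the control, after 2 h Bic, after LP TTX and after LP TTX/NMDA (x axis), with 1 line per preparation joining separate cultures, not a time course. In all 5 preparations Mcur1 was lower after 2 h Bic than in the control, higher after LP TTX than after 2 h Bic, and lower again after LP TTX/NMDA.

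The active component of the LP compares TTX/NMDA with TTX and so asks what toxic NMDA receptor signaling adds to silence. Here 4 of 8 members were called, Smdt1 and Slc8b1 higher and Mcur1 and Micu3 lower with NMDA. This comparison called 23.3% of all genes tested and 46.9% of those with a mean of at least 1 CPM, and the share of the members is near the latter. Mcur1 had 13.6, 14.6, 10.9, 13.8 and 12.5 CPM after LP TTX/NMDA, below the lowest LP TTX library of 15.7 CPM. It fell by 0.60 ± 0.11 (edgeR adjusted p = 7.40e-05), a fold change of 0.658, and was lower in 5 of 5 preparations.

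Smdt1, the gene of the EMRE subunit, moved the other way. Its levels were 68.8, 62.6, 60.3, 59.7 and 52.4 CPM after LP TTX and 86.5, 74.9, 83.2, 92.6 and 69.0 CPM after LP TTX/NMDA. The lowest NMDA library (preparation 8) was just above the highest TTX library (preparation 1), so that the groups did not overlap. Smdt1 rose by 0.41 ± 0.08 (edgeR adjusted p = 2.59e-04), a fold change of 1.33. Within a library, the ratio of Smdt1 to Mcu reads, which no scaling of libraries can change, went up in 5 of 5 preparations, by 0.50 ± 0.15 on the log2 scale (SD, n = 5).

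Slc8b1, whose product takes calcium out of the matrix, had 1.502, 1.57, 0.897, 1.47 and 0.649 CPM after LP TTX and 2.39, 1.94, 1.74, 3.26 and 1.44 CPM after LP TTX/NMDA. The ranges overlapped between preparations, but each preparation was higher with NMDA. The difference was 0.78 ± 0.23 (edgeR adjusted p = 0.0123), a 71.8% higher level with an interval of 0.31 to 1.25 on the log2 scale, and rests on 20 to 99 reads per library. It held without any 1 of the preparations (edgeR adjusted p up to 0.0357). Its ratio to Mcu was higher in 5 of 5 preparations, by 0.93 ± 0.37.

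Micu3 had 73.2, 86.4, 85.7, 67.6 and 91.1 CPM after LP TTX/NMDA, lower than LP TTX in every preparation. The 2 groups overlapped, preparation 8 with NMDA lying above the lowest TTX libraries. Micu3 fell by 0.26 ± 0.08 (edgeR adjusted p = 0.0121), but the call was lost without preparation 7 (-0.20 ± 0.08, edgeR adjusted p = 0.0869) and with scaling by library totals (-0.08 ± 0.08, edgeR adjusted p = 0.436). Micu2, the other Micu gene of the set, differed by 0.15 ± 0.08 and was not called (edgeR adjusted p = 0.217). It was called higher with NMDA in the paired fit (0.19 ± 0.05, edgeR adjusted p = 0.00375) and with library totals (0.33 ± 0.08, edgeR adjusted p = 0.00323). Letm1 differed by -0.14 ± 0.06 and was called lower in the paired fit alone (-0.11 ± 0.05, edgeR adjusted p = 0.0365), in which 66.7% of the genes with a mean of at least 1 CPM were called.

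With library totals in place of TMM factors, the median log2 fold change of the genes with a mean of at least 1 CPM moved from -0.01 to 0.17, and the calls over all genes moved from 3807 higher and 3861 lower to 7049 higher and 2133 lower. Smdt1 (0.59), Slc8b1 (0.96) and Mcur1 (-0.43) kept their direction and their call, whereas the differences of Mcu (0.08), Mcub (0.06) and Letm1 (0.04) turned positive without a call. For the LP total effect the same median moved from 0.00 to 0.20, and the calls over all genes from 3768 higher and 3593 lower to 7573 higher and 1897 lower.

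**Figure D3:**
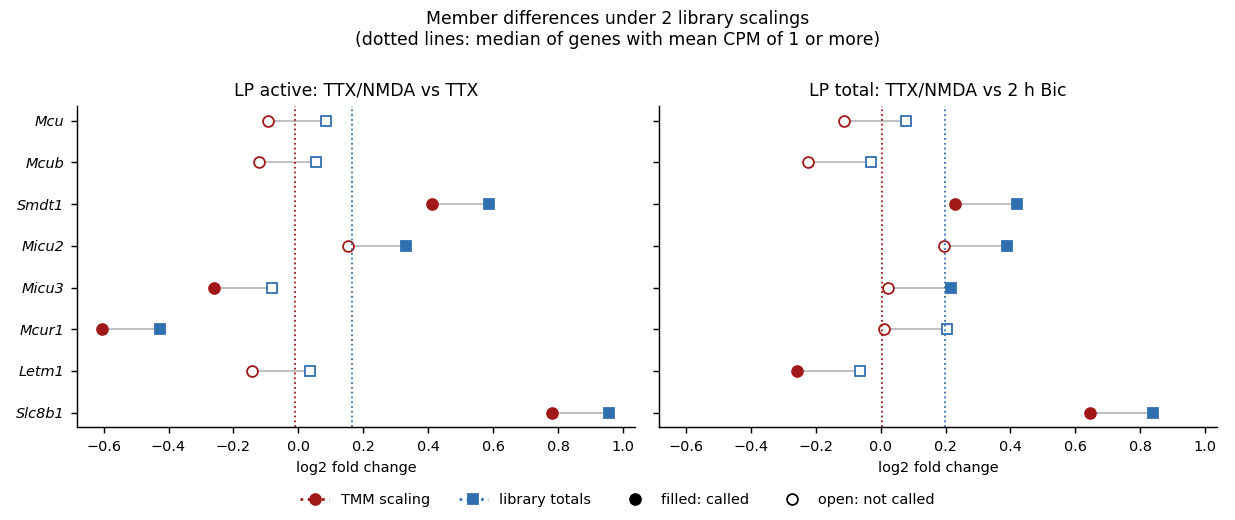
Log2 fold change (x axis) of the 8 members (y axis) for the LP active component and the LP total effect, with TMM factors (circles) and with library totals (squares), filled where edgeR's adjusted p was under 0.05, and with the median of the genes of mean CPM 1 or more dotted in the same colours. Mcur1, Smdt1 and Slc8b1 were called under both scalings in the active component, Micu3 only with TMM factors and Micu2 only with library totals.

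Markers of cell types moved in this comparison as well. The summed level of the 10 neuronal markers was 8813 to 9794 CPM after LP TTX and 7169 to 7849 CPM after LP TTX/NMDA, with 5 genes called lower and 0 higher. The summed astrocyte markers were 965.5 to 1448 and 1093 to 1928 CPM, with 6 of 7 genes called higher and 1 lower. Of the oligodendrocyte lineage genes 5 of 7, of the vascular and fibroblast genes 4 of 6 and of the microglial genes 2 of 7 were called higher. Their part in the differences of Smdt1, Slc8b1, Mcur1 and Micu3 was not tested.

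The total effect of the LP sets TTX/NMDA against 2 h Bic, and 3 members were called in it, where 22.8% of all genes and 45.3% of those with a mean of at least 1 CPM were called. Letm1 was 103.4, 117.2, 122.3, 118.5 and 109.8 CPM after 2 h Bic and 94.1, 94.2, 96.4, 103.1 and 94.6 CPM after LP TTX/NMDA. All NMDA libraries were below all Bic libraries, by a margin that was narrow for preparation 1 with Bic and preparation 7 with NMDA. Letm1 fell by 0.26 ± 0.07 (edgeR adjusted p = 0.00444), a fold change of 0.837. The call ended with library totals (-0.06 ± 0.06, edgeR adjusted p = 0.465) and without preparation 3 (edgeR adjusted p = 0.0533) or 6 (edgeR adjusted p = 0.0505).

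Smdt1 was higher than with Bic by 0.23 ± 0.08 (edgeR adjusted p = 0.0259), in 4 of 5 preparations, from 62.3 to 71.7 CPM with Bic to 69.0 to 92.6 CPM with TTX/NMDA. That call ended without preparation 1 (edgeR adjusted p = 0.112) or 7 (edgeR adjusted p = 0.0547). Slc8b1 rose by 0.64 ± 0.22 (edgeR adjusted p = 0.0263), higher in 5 of 5 preparations, and its call ended without preparation 1 (edgeR adjusted p = 0.0709) or 6 (edgeR adjusted p = 0.0544). Micu2 differed by 0.20 ± 0.08 (edgeR adjusted p = 0.0799) and was called higher after filtering of low counts (0.22 ± 0.08, edgeR adjusted p = 0.0363), in the paired fit (0.22 ± 0.05, edgeR adjusted p = 0.00305, with 60.3% of the genes of mean CPM 1 or more called) and with library totals (0.39 ± 0.08, edgeR adjusted p = 3.07e-04). The total differences of Mcur1 (0.01 ± 0.10) and Micu3 (0.02 ± 0.07), whose passive and active components had opposite signs, did not pass. With library totals, Micu3 was called higher (0.22 ± 0.07, edgeR adjusted p = 0.0214). In this comparison as well, 6 of 7 astrocyte markers were called higher and 1 lower, and 1 of 10 neuronal markers was called higher and 5 lower. Of the other lists, 5 of 7 oligodendrocyte lineage, 2 of 6 vascular and fibroblast and 1 of 7 microglial markers were called higher, and the part of all these in the result was not tested.

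TBOA, the milder intervention, left all members without a call in the spillover comparison. The count was 0 in edgeR, 0 in DESeq2 and 0 at an unadjusted p under 0.05, where edgeR called 0.602% of all genes and 1.37% of those with a mean of at least 1 CPM. Log2 fold changes against 2 h Bic ran from -0.09 (Mcub) to 0.12 (Micu3). The level of Mcur1 after TBOA was 11.9 to 15.6 CPM, close to the 11.1 to 15.1 CPM of 2 h Bic. For Smdt1 the interval ran from -0.19 to 0.08, below the LP total effect against the same Bic libraries (0.23). For Slc8b1 it ran from -0.42 to 0.44, below the LP total effect of 0.64. For both genes it overlapped the interval of the LP total effect, and TBOA was not tested against TTX/NMDA.

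**Figure D4:**
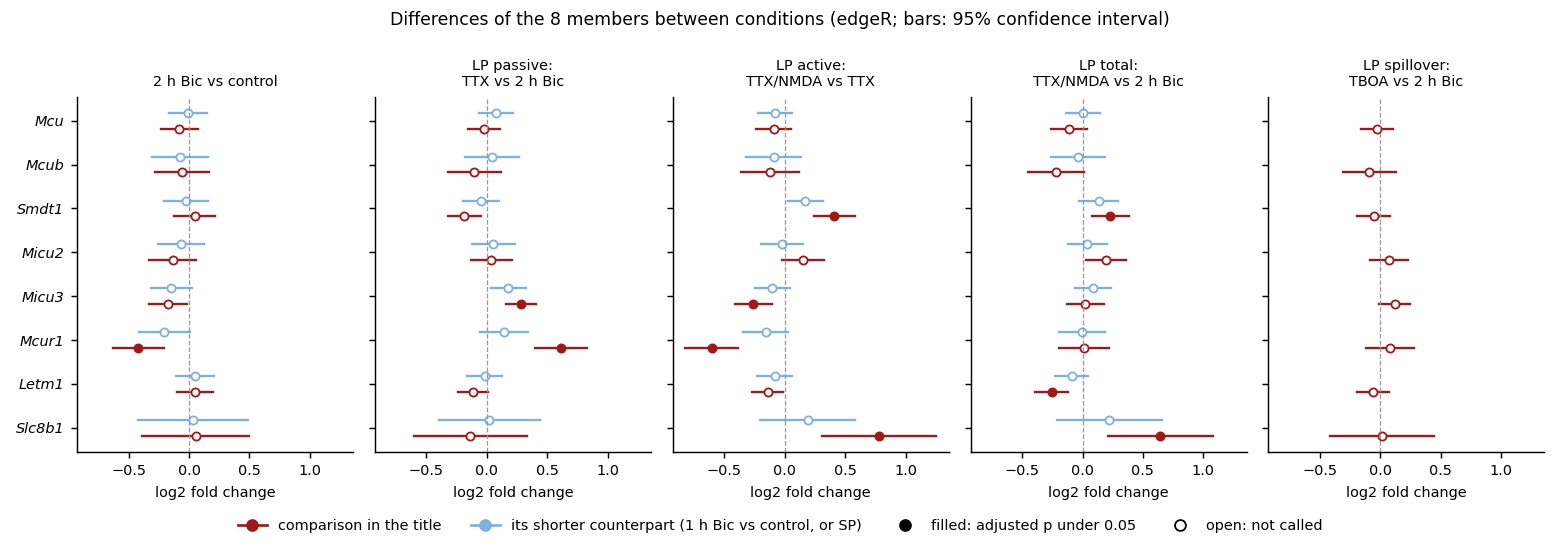
Log2 fold change (x axis) of each member (y axis) with its 95% confidence interval (bar) in 5 comparisons (red) and, where there is one, the shorter counterpart (blue: 1 h Bic against control, or the SP), filled where edgeR's adjusted p was under 0.05. All blue points are open, and filled red points are seen for Mcur1 in 3 panels, Micu3, Smdt1 and Slc8b1 in 2 and Letm1 in 1.

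The difference between protocols was tested as such, with an interaction term over all libraries of the 2 protocols. For the passive component edgeR called 0 members (0.256% of all genes and 0.625% of those with a mean of at least 1 CPM), with 1 member, Mcur1, at an unadjusted p under 0.05, and DESeq2 called 0. For Mcur1 the LP value minus the SP value was 0.47 ± 0.15, with an interval of 0.16 to 0.77, without a call (edgeR adjusted p = 0.420). For the active component edgeR also called 0 members (2.57% and 6.09% of the same classes of genes), with Mcur1 and Smdt1 at an unadjusted p under 0.05, and DESeq2 called 0. For Mcur1 the LP value minus the SP value was here -0.43 ± 0.14 (edgeR adjusted p = 0.117). In the paired fit, which called 28.8% of the genes with a mean of at least 1 CPM, Mcur1 (-0.43 ± 0.13, edgeR adjusted p = 0.0177) and Slc8b1 (0.65 ± 0.23, edgeR adjusted p = 0.0451) passed. Mcur1 also passed unpaired without preparation 6 (-0.54 ± 0.14, edgeR adjusted p = 0.0354). For Smdt1 the value was 0.26 ± 0.11, with an interval of 0.03 to 0.48 (edgeR adjusted p = 0.289). Library totals moved the calls over all genes in this test from 253 higher and 647 lower to 482 and 331, and called 0 members. A time or dose relation cannot be read from this, since the protocols differ in the length of both the firing and the intervention.

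Levels of the members were compared across the 45 libraries after the mean of each preparation was removed, which leaves the treatments and library composition as shared sources. Mcur1 and Micu3 went together with r = 0.59, Smdt1 and Slc8b1 with r = 0.64, and Smdt1 and Mcur1 in opposite ways with r = -0.54. Mcu and Mcub had r = 0.37. Among 12616 other genes, the one most like Mcur1 was Snap29, a SNARE protein gene (r = 0.83), followed by Zfp715 (0.82) and Wdr44 (0.82). Nearest to Micu3 were Ppp3r1, which encodes the regulatory subunit of calcineurin (r = 0.92), Rnf11 (0.90) and Matr3 (0.90). Smdt1 was most like Ndufa13 and Cox6a1, which encode respiratory chain subunits (r = 0.96 and 0.95), and Elob (0.95). Letm1 was most like Mfsd12 (0.92), Myo18a (0.91) and Atf6b (0.91), and Slc8b1 most like Idh2, the gene of a matrix dehydrogenase (0.88), Tsc22d4 (0.87) and Rhbdf1 (0.86).

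Other genes of mitochondrial calcium handling, 38 in all, put these values in context. After 2 h Bic, edgeR called 1 of them higher and 4 lower, beside 18.6% of the genes with a mean of at least 1 CPM called. The paired fit called 4 higher and 5 lower, beside 31.7% of such genes. By role, 3 of 11 uniporter regulators and proteases and 1 of 8 matrix targets of calcium were lower, and 1 of 8 other inner membrane exchange genes was higher. Slc25a25, a calcium-regulated carrier of ATP and phosphate, rose by 0.68 ± 0.08 from 65.8 ± 5.74 to 106.2 ± 5.98 CPM (edgeR adjusted p = 3.40e-08). Ccdc90b, the closest relative of Mcur1, fell by 0.77 ± 0.12 (edgeR adjusted p = 1.11e-05), Pdp1, the phosphatase that activates pyruvate dehydrogenase, by 0.38 ± 0.08 (edgeR adjusted p = 8.23e-04), and Maip1, which aids EMRE maturation, by 0.39 ± 0.09 (edgeR adjusted p = 0.00372). Mcur1 and Ccdc90b were thus both lower after 2 h Bic. In the LP active component, where Mcur1 fell, Ccdc90b rose by 0.60 ± 0.12, from 6.40 ± 0.972 to 9.71 ± 1.21 CPM (edgeR adjusted p = 3.45e-04), a gene picked for this comparison after its values were seen.

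In the LP passive component, 1 of the 38 was higher and 1 lower, and the paired fit called 5 and 5, beside 10.4% and 35.8% of the genes with a mean of at least 1 CPM. The protease gene Yme1l1 rose by 0.25 ± 0.06 (edgeR adjusted p = 0.0132). Slc25a25 fell by 0.25 ± 0.06 (edgeR adjusted p = 0.0125). The median of the 38 genes was -0.03, against 0.00 over all genes with a mean of at least 1 CPM.

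In the LP active component 6 of the 38 rose and 10 fell, beside 46.9% of the genes with a mean of at least 1 CPM called. The paired fit called 14 higher and 11 lower, beside 66.7% of such genes. With library totals 15 rose and 4 fell, beside 5381 higher and 1990 lower of those 13592 genes. By role, with TMM factors, 4 of 11 uniporter regulators and proteases rose and 3 fell. Of 8 matrix targets of calcium 1 rose and 3 fell, of 8 genes of endoplasmic reticulum contact and supply 1 rose and 3 fell, of 8 other inner membrane exchange genes 1 fell, and 0 of the 3 outer membrane channels was called (1 had an unadjusted p under 0.05). The IP3 receptor genes moved apart: Itpr1 fell by 0.76 ± 0.08, from 113.2 ± 13.9 to 67.2 ± 6.73 CPM (edgeR adjusted p = 1.52e-08), and Itpr2 rose by 0.99 ± 0.15, from 5.19 ± 1.05 to 10.3 ± 2.39 CPM (edgeR adjusted p = 7.69e-06). Gpd2, the calcium-sensing glycerol-3-phosphate dehydrogenase, fell by 0.51 ± 0.07 (edgeR adjusted p = 6.13e-07), and Pdzd8, a tether between the 2 organelles, by 0.49 ± 0.08 (edgeR adjusted p = 3.97e-05). Itpr2 is abundant in astrocytes as well, whose markers were higher in these libraries, and that part was not tested.

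In the LP total effect 7 of the 38 rose and 9 fell, beside 45.3% of the genes with a mean of at least 1 CPM called. The paired fit called 12 higher and 11 lower, beside 60.3% of such genes. With library totals 22 rose and 6 fell, beside 5859 higher and 1780 lower of those 13592 genes. By role, those called with TMM factors were 3 and 2 uniporter regulators and proteases, 0 and 2 matrix targets, 1 and 3 genes of endoplasmic reticulum contact and supply, 1 and 2 other exchange genes, and 2 and 0 outer membrane channels. Itpr1 (-0.80 ± 0.09, edgeR adjusted p = 2.48e-08), Gpd2 (-0.48 ± 0.07, edgeR adjusted p = 1.34e-06) and Mfn2, a mitofusin (-0.47 ± 0.07, edgeR adjusted p = 1.92e-06), fell, and Itpr2 rose (0.99 ± 0.14, edgeR adjusted p = 6.88e-07). In the SP active and total comparisons the same 2 genes were called of the 38, Itpr1 (-0.37 ± 0.08 and -0.39 ± 0.09, edgeR adjusted p = 0.00633 and 0.00456) and Gpd2 (-0.27 ± 0.07 and -0.26 ± 0.07, edgeR adjusted p = 0.0107 and 0.0193), both lower, beside 9.54% and 9.38% of the genes with a mean of at least 1 CPM. The paired fit called 5 and 14 of the 38 there, beside 18.2% and 30.2% of such genes. Library totals called 5 and 7, without Gpd2, beside 621 higher and 604 lower and 876 higher and 626 lower of such genes. After 0.5 and 1 h Bic, in the SP passive component and with TBOA, edgeR called 0 of the 38, with 0, 6, 0 and 3 at an unadjusted p under 0.05.

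**Figure D5:**
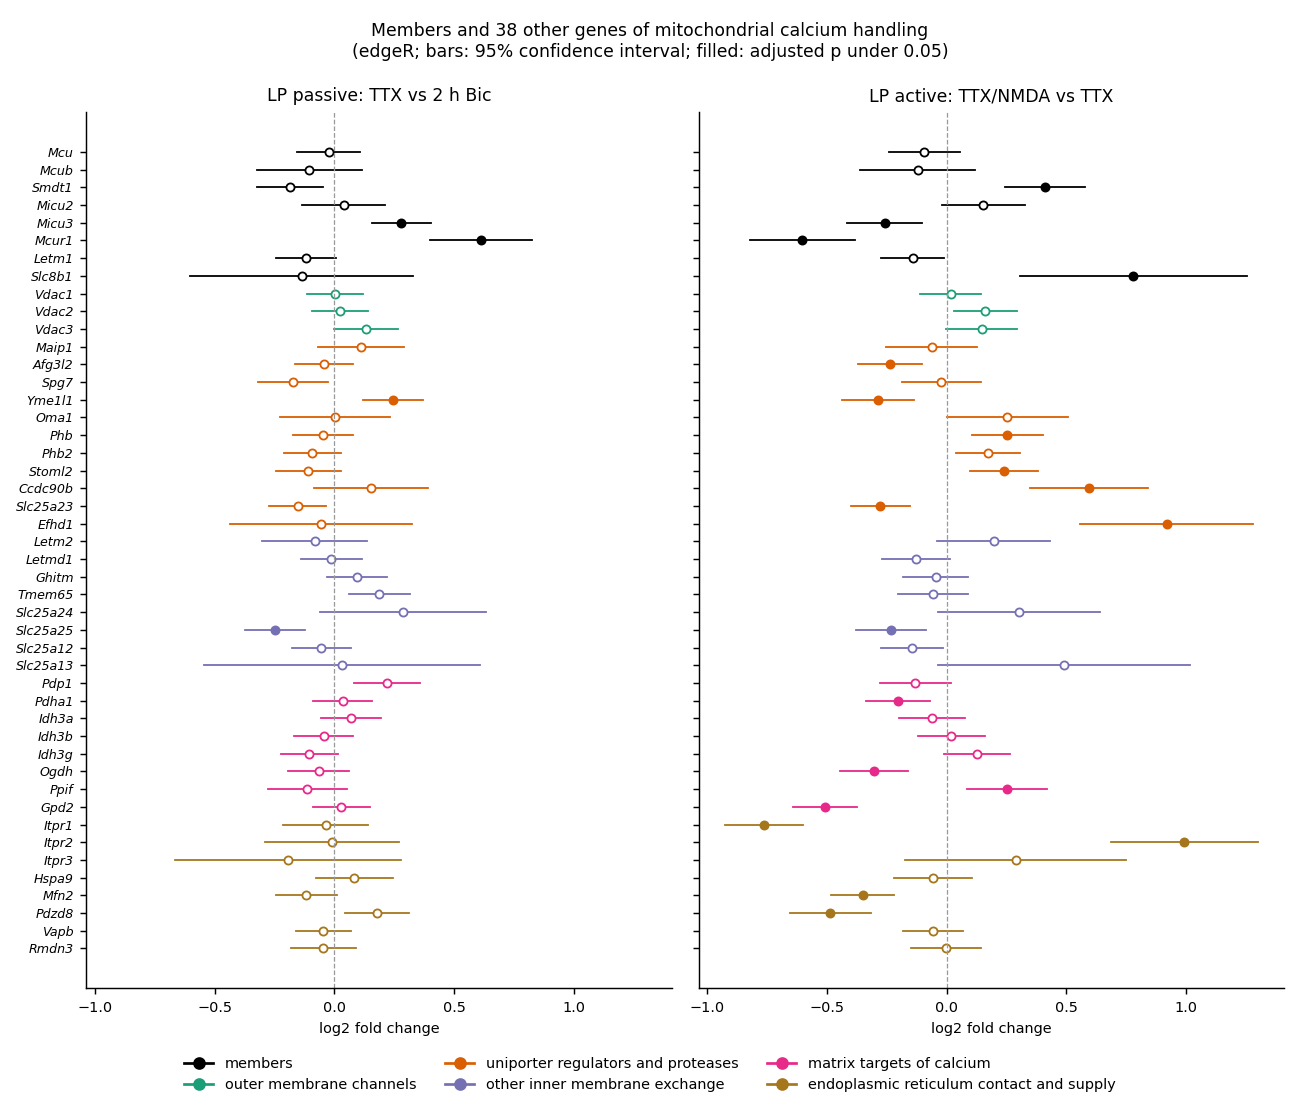
Log2 fold change with 95% confidence interval (x axis) of the 8 members and 38 other genes of mitochondrial calcium handling (y axis, coloured by role) for the LP passive (left) and LP active (right) components, filled where edgeR's adjusted p was under 0.05. On the left 2 members and 2 other genes are filled, and on the right 4 members and 16 others, among them Itpr1 at -0.76 and Itpr2 at 0.99.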

How the data were processed

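Poly(A) RNA of 45 hippocampal cultures, 5 for each of 9 conditions, was made into strand-specific libraries and sequenced from 1 end over 75 cycles. The deposited values are counts: the authors demultiplexed with bcl2fastq 2.20.0.422, aligned to GRCm38 with STAR 2.5.4b and counted reads per Ensembl gene on its strand with featureCounts 1.6.5, leaving out reads that fell on several places or genes. Deposited counts were used as they stood, with 11316580 to 81129276 per library, and the 8 genes had 14 to 9731 reads per library. Intervals cover the spread between libraries.

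Ensembl identifiers were joined to symbols with GENCODE M21. For each of 10 comparisons, every gene that had 1 or more reads in some library of the groups compared was fitted with edgeR 4.0.16 (TMM factors, quasi-likelihood F test) in R 4.3.3, with Benjamini-Hochberg adjustment over all genes tested and calls at an adjusted p under 0.05. The difference between LP and SP was tested as an interaction term in 2 further fits. Levels are TMM-normalized CPM with the SD over 5 preparations, and levels per kb use countable exon bases. The fits were tested on simulated counts with known changes. Tables and plots used Python 3.11.15, pandas 2.3.3, numpy 2.4.6 and matplotlib 3.10.9.

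All libraries carry a culture preparation number in the labels, and 1 preparation supplied 1 library to each condition. Deviations from the group means correlated with a mean r of 0.43 between libraries of the same preparation and of -0.11 between others, over 13592 genes. The fit without pairing was the main one, and a fit with the preparation as a block, on genes that passed filterByExpr, was the alternative (the paired fit). Other alternatives were filterByExpr alone, DESeq2 1.42.0, DESeq2 size factors in edgeR, all 45 libraries in 1 fit, leaving out each preparation, and scaling by library totals, the last chosen after the data were seen. The 8 genes and all gene lists were chosen with earlier results of these data known. All 8 genes were named, and of 38 further genes up to 4 called ones with the smallest adjusted p per comparison, with Ccdc90b in the LP active component added after its values were seen. A few further genes of this pathway are not reported here. The 3 genes most like each called member had the highest Pearson r of log2 CPM over 45 libraries after removal of preparation means.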

Additional observations from a re-analysis of the deposited data

Results flagged for a closer look

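Of 72 groups of 5 libraries, formed by 8 genes in 9 conditions, 4 held a library that stood apart from the other 4 by Dixon's test, and chance alone picks about 1 in 20 groups. Letm1 reached 134.4 CPM in preparation 6 after SP TTX, where the others had 102.9 to 110.5 CPM. After LP TTX/NMDA, Letm1 was 103.1 CPM in preparation 7, against 94.1 to 96.4 CPM in the others, so that the highest library of the lowest condition was the one closest to the 2 h Bic libraries. Mcub stood at 9.01 CPM in preparation 3 after 2 h Bic, against 7.42 to 7.55 CPM. Smdt1 stood at 72.2 CPM in preparation 7 after 0.5 h Bic, against 54.9 to 59.9 CPM, at the margin of the criterion. With TMM factors and all preparations, edgeR called none of these 3 genes in a comparison that involves their 0.5 h Bic or SP TTX libraries.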

How the results depend on the processing

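Across all alternatives, 1030 log2 fold changes of members kept their side of the threshold, 16 gained and 9 lost a call, and 0 of the called values changed sign. Values without a call could change sign, as those of Mcu, Mcub and Letm1 did in the LP active component with library totals. Of 132 counts of called members, 8 moved by over 1.5 times. The replicate block with filterByExpr, which pairs libraries by preparation and drops genes of low counts, raised the count from 2 to 4 in the LP passive component (Smdt1 and Letm1 added) and from 0 to 2 in the difference of the active component between protocols (Mcur1 and Slc8b1). It also called Micu2 in the LP active (0.19) and LP total (0.22) comparisons and Letm1 in the LP active component (-0.11), and it ended no call of a member. Of these added calls, filterByExpr without the block made only that of Micu2 in the LP total comparison. Library totals raised the count from 1 to 2 after 2 h Bic and from 0 to 1 in the SP active component. With 1 preparation left out, the count ran from 0 to 1 in the SP total comparison, from 1 to 3 in the LP total comparison, where only Letm1 remained without preparation 1 and only Smdt1 without preparation 6, and from 0 to 1 in the difference of the active component. The cause of these changes was not tested, apart from the smaller number of libraries. Calls of Mcur1 after 2 h Bic and in the LP passive and active components, of Micu3 in the passive and of Smdt1 and Slc8b1 in the active component held in 5 of 5 such fits. Of 504 mean levels, 2 moved by more than their SD, both with plain CPM. Slc8b1, with a median of 37 reads per library, limits what can be said of it.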
